A study of Bos taurus with 8 samples.

Results

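Amino acid transporter genes were followed in bovine blastocysts that developed with or without lipids extracted from serum. The set was defined by name: every expression probe whose symbol began with SLC1A, SLC3A, SLC6A, SLC7A, SLC36A, SLC38A or SLC43A and a number belonged to it. This gave 53 genes with 68 probes, of 15229 genes with a symbol on the array, and each gene was read from its probe of highest mean intensity. Of the 53, 40 had a signal above the negative control probes on enough arrays to be tested, against 12957 of all genes.

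The embryos were Holstein blastocysts made in vitro from oocytes of slaughterhouse ovaries. Both groups were kept in the same control culture to the 8 to 16 cell stage on day 3. The lipid group then had serum lipids in the medium up to day 7, and the control group had none. The labels give Sigma as the source of BSA for channel 1 of every array, which held lipid embryos on 4 arrays and control embryos on 4. RNA came from pools of 10 blastocysts at 170 hours after fertilization, 4 pools for each group, and was amplified before labelling. Each control pool was taken to be hybridised against a lipid pool on 2 arrays with exchanged dyes (Cy3 and Cy5), 1 on slide 87 and 1 on slide 88. This pairing was inferred from the array numbers and a correlation check, as the labels do not give it. The unit of replication was the pool pair (n = 4), and each ratio below is log2 lipid over control, the mean of the 2 arrays of a pair. Levels are log2 normalized intensities of single pools. They depend on the probe as well as on the transcript and are compared only within a gene.

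Amino acid transporters of the plasma membrane and the lysosome bring in building blocks for protein synthesis, exchange one amino acid for another, and move amino acids that serve as osmolytes. In the preimplantation embryo of several mammals, glycine, taurine and glutamine in the medium protect against osmotic stress. In the mouse, uptake of leucine by the trophectoderm, the outer epithelium of the blastocyst, feeds the mTORC1 kinase complex, which senses amino acids at the lysosome. Some genes of these families carry other substrates: creatine, monoamine transmitters or nucleobases.

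The tissue label was read against lineage markers. Signal was above the limit on enough arrays for all 10 trophectoderm genes, 6 of the inner cell mass and epiblast, and 4 of the primitive endoderm. As 12957 of all 15229 genes passed the same filter, these counts do not set a lineage apart. The mean signal of these markers ran from 0.97 times the limit for SOX17 to 190 times for KRT8. Of 17 genes of cumulus and granulosa cells, the maternal cells around the oocyte, 16 passed the filter too. Pool pair 2 had their highest median ratio, 0.97, where pairs 1, 3 and 4 had -0.02, -0.03 and 0.17. Summarised as the median over the list, their level was 7.78 to 8.47 in control pools and 8.16 to 9.14 in lipid pools. Over the 4 pairs 14 of the 16 mean ratios were above 0, with a median of 0.35, and 0 had an adjusted p under 0.05. In pool pair 2 the list ran from -0.24 for CYP19A1, the aromatase of granulosa cells, to 3.70 for LUM, a matrix proteoglycan. CYP19A1 had -0.23 ± 0.09 over the 4 pairs. Sperm genes gave no common direction: the protamines PRM1 and PRM2 had -0.79 ± 0.10 and 0.10 ± 0.08, TNP1 had -0.10 ± 0.16, and ODF1 was not tested. In pools of whole blastocysts, fewer cells of a type and less RNA per cell cannot be told apart.

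No transporter gene passed the test. In the limma fit across all kept probes, with Benjamini-Hochberg adjustment, 0 of the 40 genes had an adjusted p under 0.05, as did 0% of the 12957 genes, and the lowest adjusted p was 1. At an unadjusted p under 0.05, 1 transporter gene was higher with lipid, SLC38A10, against 2.82% of all genes. On the lower side there were 2, SLC1A3 and SLC6A4, against 2.59%. The 40 mean ratios ran from -0.47 to 0.22, with 21 above 0 and 19 below. Their median was 0.00 and their median absolute size 0.08, the same as over all genes (0.00 and 0.08). The median in the single pool pairs was -0.01, 0.04, 0.00 and 0.02. Whether the rise of genes from the cumulus and granulosa list in pair 2 had a part in these values was not tested. With each pool pair left out in turn, SLC1A3 had an unadjusted p under 0.05 every time, SLC6A4 only without pair 3 and SLC38A10 never. In those fits 3.6% to 8.95% of all genes had such a p.

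**Figure D1:**
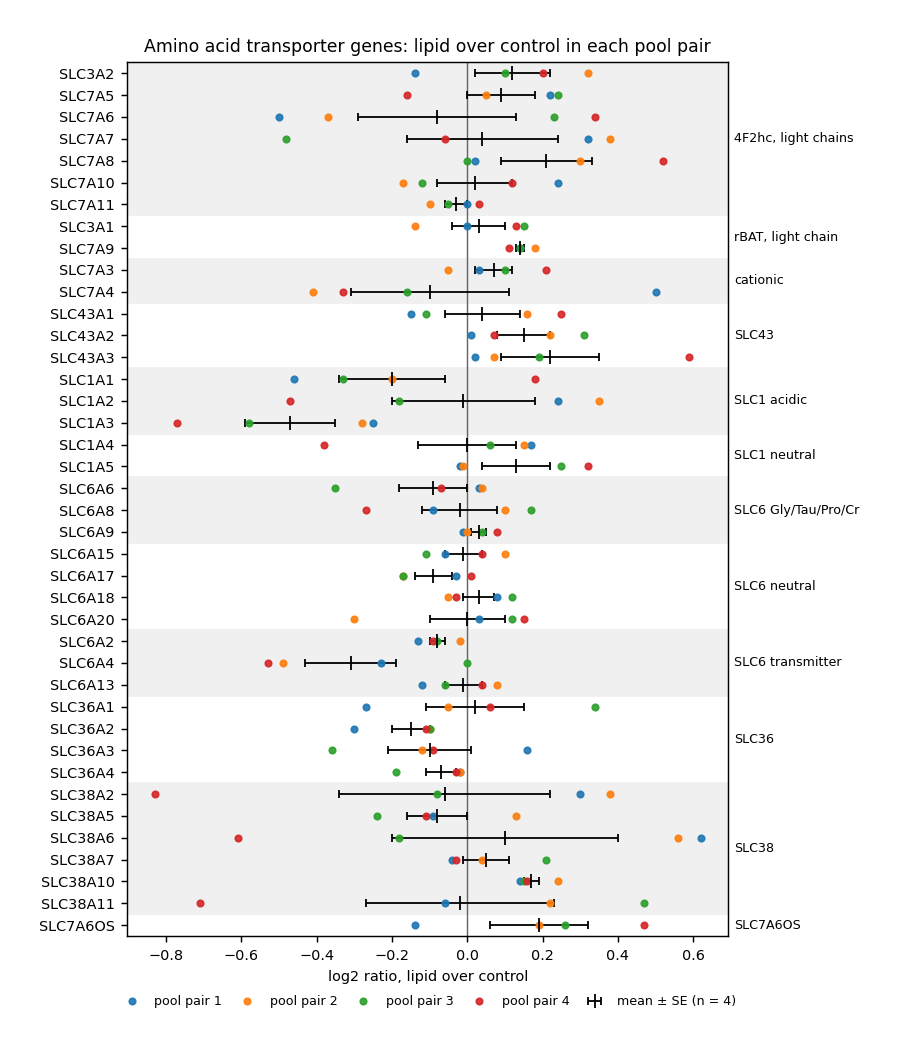
Log2 ratio of lipid over control (horizontal axis) for the 40 tested transporter genes, grouped by role. Coloured points are the 4 pool pairs and black marks the mean ± SE. Means lie between -0.47 for SLC1A3 and 0.22 for SLC43A3, and in most genes the pairs fall on both sides of 0.

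The direction was shared by all 4 pool pairs in 9 genes (22.5%), against 10.96% of all genes. All 4 ratios were above 0 for SLC38A10, SLC7A9, SLC43A2 and SLC43A3, or 4 of 40, where 5.31% of all genes did the same. All 4 were below 0 for SLC1A3, SLC36A2, SLC36A4, SLC6A2 and SLC6A4 (whose pair 3 rounds to 0.00), or 5 of 40, where the share of all genes was 5.65%. Most of these ratios were small: apart from SLC1A3, SLC6A4 and SLC43A3, the mean was between -0.15 and 0.17. On single arrays, only SLC1A3 and SLC36A2 kept 1 sign on all 8 (5%, against 2.13% of all genes). In SLC7A9, SLC36A4 and SLC6A2 the mean over arrays changed sign with the dye. In no transporter gene were the 4 lipid pools separate in level from the 4 control pools, which was the case for 0.733% of all genes.

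Detection differed from gene to gene. The filter passed 40 of the 53 genes and 12957 of all 15229 genes. With signal required on all 8 arrays, 33 transporter genes and 10410 of all genes were left. Mean signal was at least 2 times the limit for 16 genes, between 1 and 2 times for 19 and below it for 18. Of those 18, 5 passed on at least 4 arrays and were tested. The shares of all genes at these signal levels were not computed. All 16 channel readings were above the limit for 23 genes, and none for 4: SLC38A1, SLC6A14, SLC6A16 and SLC6A5. SLC6A14 is a broad carrier of neutral and cationic amino acids, and SLC38A1 takes up glutamine with sodium. The control pools 1 to 4 of SLC6A14 read 6.63, 6.67, 6.44 and 6.56 and its lipid pools 6.58, 6.61, 6.58 and 6.73. Those of SLC38A1 read 6.60, 6.57, 6.63 and 6.58, and 6.49, 6.63, 6.77 and 6.91. All readings of SLC6A14 and most of SLC38A1 lay below the median of the negative control probes, which was 6.76 to 6.90 over the pools. A probe near that level gives an upper bound on signal and does not show that the transcript is absent. The other 9 genes not tested were SLC1A6, SLC1A7, SLC38A3, SLC38A4, SLC6A7, SLC6A12, SLC7A1, SLC7A2 and SLC7A14. Among them SLC7A1, the widespread importer of arginine and lysine, read 6.95, 7.05, 6.78 and 6.82 in control pools and 6.86, 6.93, 6.93 and 6.84 in lipid pools.

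**Figure D2:**
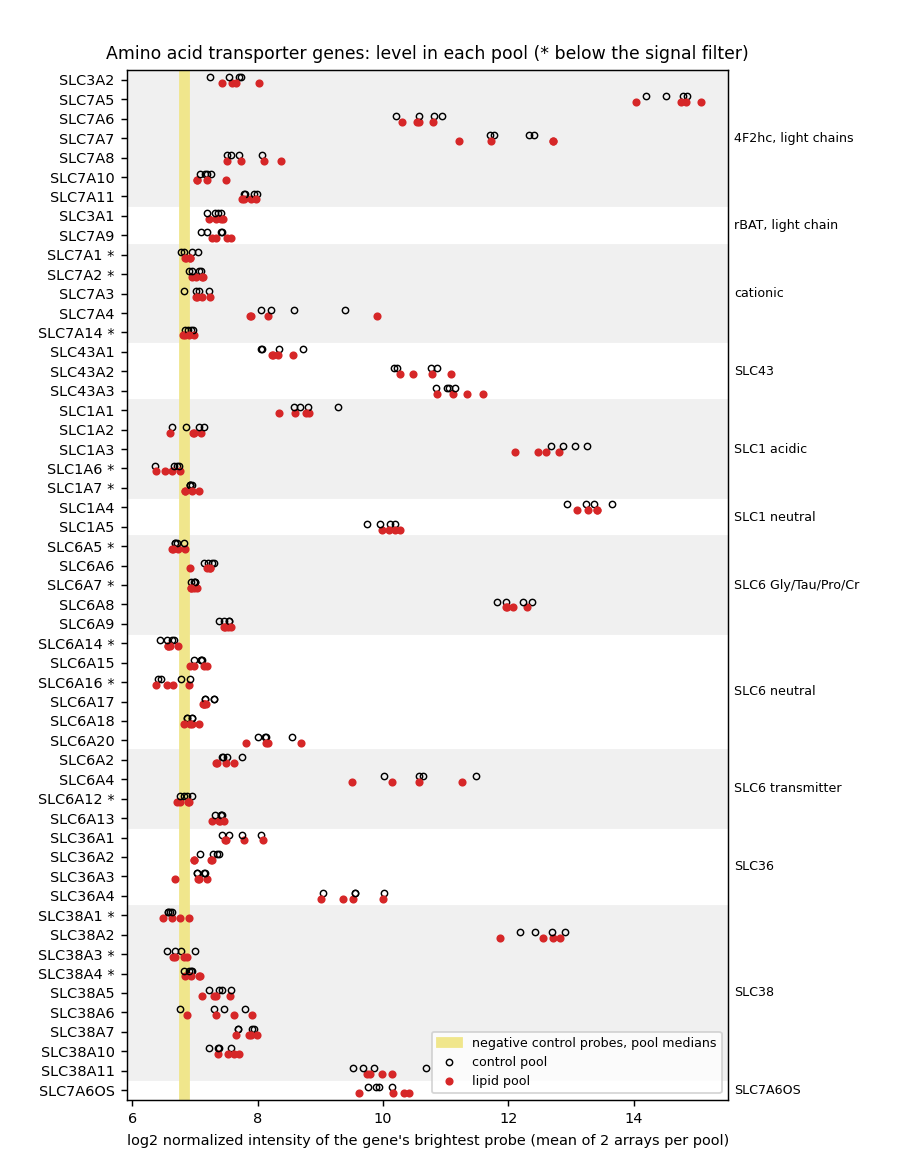
Log2 normalized intensity (horizontal axis) of the brightest probe of each of the 53 genes in the 4 control pools (open circles) and 4 lipid pools (red), by role. The yellow band is the negative control probes' median, 6.76 to 6.90, and an asterisk marks the 13 genes not tested. Control and lipid pools overlap in every gene.

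The first role is that of 4F2hc, the heavy chain encoded by SLC3A2, and the light chains that bind it to reach the cell surface. All 7 genes were tested, 5 with a ratio above 0 and 2 below, with a median of 0.04 and none at an unadjusted p under 0.05. SLC7A5 (LAT1), which exchanges leucine and other large neutral amino acids, had a signal 128 times its limit. Its control pools 1 to 4 read 14.85, 14.78, 14.52 and 14.19 and its lipid pools 15.07, 14.83, 14.76 and 14.04. The ratio was 0.09 ± 0.09, with a 95% interval of -0.14 to 0.31 (from the limma fit, as all intervals here, and not adjusted for the number of probes). Pool pair 4 was the lowest in both groups and the only one with the lipid pool below its control.

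SLC3A2 itself read 7.74, 7.70, 7.55 and 7.24 in control pools and 7.59, 8.02, 7.65 and 7.44 in lipid pools, a ratio of 0.12 ± 0.10. The lipid pool was above its control in 3 of 4 pairs. SLC7A8 (LAT2), a second exchanger of neutral amino acids, read 7.71, 8.07, 7.52 and 7.58 in control pools and 7.73, 8.37, 7.52 and 8.10 in lipid pools. Its ratio of 0.21 ± 0.12 came from pairs 2 and 4, at 0.30 and 0.52, while pairs 1 and 3 lay at 0.02 and 0.00.

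SLC7A6 and SLC7A7 encode the light chains that exchange cationic for neutral amino acids. SLC7A6 read 10.81, 10.95, 10.57 and 10.21 in control pools and 10.31, 10.58, 10.80 and 10.55 in lipid pools. Pairs 1 and 2 were lower with lipid and pairs 3 and 4 higher, which gave -0.08 ± 0.21. SLC7A7 had the opposite order, with 0.32, 0.38, -0.48 and -0.06 in pairs 1 to 4. SLC7A11 (xCT), which brings in cystine for glutathione synthesis in exchange for glutamate, read 7.79, 7.99, 7.80 and 7.94 in control pools and 7.79, 7.89, 7.75 and 7.98 in lipid pools. Its ratio of -0.03 ± 0.03 (95% interval -0.18 to 0.13) was among the most narrowly spread over the pairs. The single arrays did not agree: those with lipid in Cy5 had a mean ratio of 0.29 and those with lipid in Cy3 -0.34. SLC7A10, an exchanger of small neutral amino acids, had 0.02 ± 0.10.

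A probe of SLC7A6OS also met the name rule. The gene lies over SLC7A6 in the RefSeq annotation (ARS-UCD2.0) and encodes no transporter. It read 9.76, 10.15, 9.89 and 9.94 in control pools and 9.62, 10.33, 10.16 and 10.41 in lipid pools, or 0.19 ± 0.13 (95% interval -0.09 to 0.48). The lipid pool was higher in pairs 2 to 4 and lower in pair 1. Set beside SLC7A6, the ratios ran in the same direction in pairs 1, 3 and 4.

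The second heavy chain, rBAT (SLC3A1), and its light chain SLC7A9 form the carrier of cystine and cationic amino acids of kidney and gut. SLC3A1 had 0.03 ± 0.07. SLC7A9 read 7.43, 7.10, 7.20 and 7.41 in control pools and 7.57, 7.28, 7.34 and 7.52 in lipid pools. The ratios of the 4 pairs, 0.14, 0.18, 0.14 and 0.11, gave 0.14 ± 0.01 (95% interval 0.00 to 0.29). The pairs agreed but the single arrays did not: arrays with lipid in Cy5 had a mean ratio of 0.42 and those with lipid in Cy3 -0.13. Its signal was 1.11 times the limit.

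Of the 5 genes of the cationic carrier branch, 2 were tested. SLC7A3, an arginine and lysine carrier, had 0.07 ± 0.05. SLC7A4, a relative for which transport of cationic amino acids has not been shown, read 9.40, 8.58, 8.06 and 8.21 in control pools and 9.91, 8.17, 7.90 and 7.88 in lipid pools. Its pool pairs differed more from each other in level than those of any other tested transporter gene, by 1.68 between the highest and lowest pair, and the ratio was -0.10 ± 0.21. Pair 1 was highest in both groups and the only pair with a ratio above 0, at 0.50, against -0.41, -0.16 and -0.33 in pairs 2 to 4. Without pair 1 the gene had an unadjusted p under 0.05, as did 8.95% of all genes. The 2 pools of a pair share their arrays.

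The SLC43 family holds facilitators that let amino acids out as well as in. The ratios of its 3 genes were all above 0, with a median of 0.15, and none passed an unadjusted p under 0.05. SLC43A2 (LAT4), a uniporter of leucine, phenylalanine and methionine, read 10.77, 10.87, 10.17 and 10.22 in control pools and 10.78, 11.09, 10.48 and 10.28 in lipid pools. Its ratio was 0.15 ± 0.07 (95% interval -0.04 to 0.34), with 0.01 in pair 1 and 0.31 in pair 3. SLC43A3, which moves purine nucleobases and not amino acids, read 10.85, 11.05, 11.15 and 11.02 in control pools and 10.87, 11.12, 11.34 and 11.60 in lipid pools. At 0.22 ± 0.13 it had the highest mean ratio of the 40 genes, to which pair 4 gave 0.59 and pair 1 gave 0.02. SLC43A1 (LAT3), which lies 1 gene away from SLC43A3 in the RefSeq annotation, had 0.04 ± 0.10.

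The acidic carriers of SLC1 take up glutamate and aspartate with sodium. The 3 tested genes had ratios at or below -0.01, with a median of -0.20. SLC1A3 (EAAT1) had the lowest ratio of all 40 genes. Its control pools 1 to 4 read 13.06, 12.88, 12.68 and 13.25 and its lipid pools 12.81, 12.60, 12.10 and 12.48. Each lipid pool was below its own control pool, by -0.25, -0.28, -0.58 and -0.77, while the lipid and control ranges overlapped. The mean was -0.47 ± 0.12, or 0.722 times the control level (95% interval of the log2 ratio -0.75 to -0.19). All 8 single arrays gave a ratio below 0, from -0.04 to -1.12, a pattern of 1 sign found in 2 of the 40 genes (5%) and in 2.13% of all genes. On slide 87 the mean was -0.37 and on slide 88 it was -0.57.

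SLC1A3 had more probes, and they did not give the same result. A second probe, with a mean level of 8.00, had 0.11 ± 0.13. The dimmest, at 6.89 and above the limit on 4 arrays, had 0.26 ± 0.07 with all 4 pairs above 0 (95% interval 0.06 to 0.46). Averaged over the 3 probes the ratio was -0.03. The brightest probe had a signal 33.9 times its limit, against 1.60 and 0.92 for the others, and which part of the transcript each probe reads was not determined here.

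**Figure D3:**
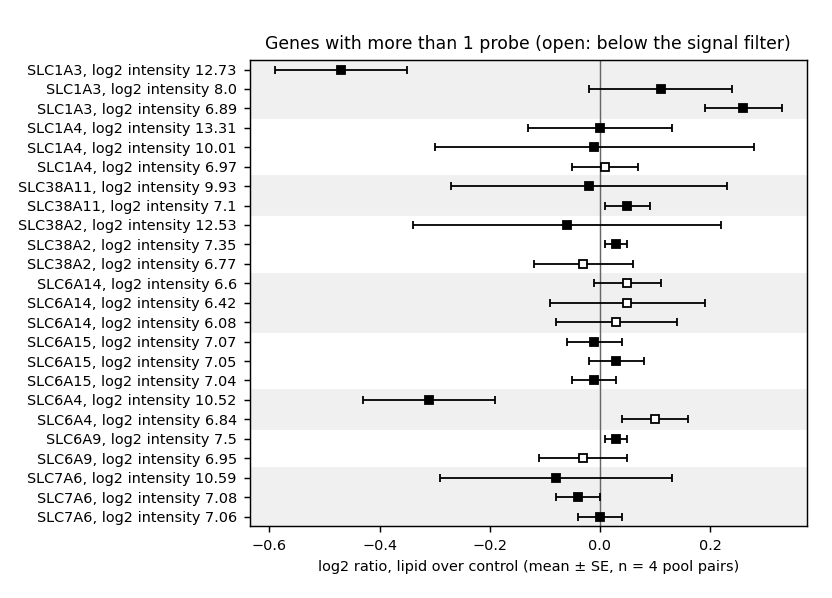
Log2 ratio of lipid over control (horizontal axis, mean ± SE, n = 4 pool pairs) of every probe of the 9 genes with 2 or 3 probes, labelled with the probe's mean level. Filled squares passed the signal filter. The brightest probe of SLC1A3 lies at -0.47 and its dimmer probes at 0.11 and 0.26, and SLC6A4 has -0.31 and 0.10.

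SLC1A1 (EAAT3) read 9.28, 8.80, 8.67 and 8.59 in control pools and 8.82, 8.60, 8.34 and 8.77 in lipid pools. The ratio was -0.20 ± 0.14 (95% interval -0.50 to 0.10), below 0 in 3 pairs and 0.18 in pair 4. SLC1A2 stood near the limit at -0.01 ± 0.19. The neutral carriers SLC1A4 and SLC1A5 exchange alanine, serine and cysteine, and SLC1A5 (ASCT2) also glutamine. SLC1A5 read 10.11, 10.20, 9.74 and 9.96 in control pools and 10.09, 10.19, 9.99 and 10.28 in lipid pools. Pairs 1 and 2 were level at -0.02 and -0.01, pairs 3 and 4 gave 0.25 and 0.32, and the mean was 0.13 ± 0.09. SLC1A4, with a signal 49.5 times its limit, had 0.00 ± 0.13. Its second probe had -0.01 ± 0.29, with a ratio of -0.79 in pair 4 where the brightest had -0.38.

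The SLC6 carriers move their substrates with sodium and chloride. SLC6A8 imports creatine. Its control pools read 12.38, 11.97, 11.82 and 12.23 and its lipid pools 12.30, 12.08, 11.98 and 11.96, which gave -0.02 ± 0.10 (95% interval -0.26 to 0.21). SLC6A9 (GLYT1) is the glycine carrier by which cleavage-stage mouse embryos take up osmolyte. It read 7.55, 7.47, 7.55 and 7.38 in control pools and 7.53, 7.48, 7.58 and 7.46 in lipid pools, or 0.03 ± 0.02. Control and lipid pools differed by at most 0.08 within any pair. On single arrays the ratio of SLC6A9 averaged -0.14 where lipid was in Cy5 and 0.19 where it was in Cy3. The taurine carrier SLC6A6 read 7.21, 7.15, 7.27 and 7.30 in control pools and 7.24, 7.19, 6.92 and 7.24 in lipid pools, or -0.09 ± 0.09. Only pair 3 departed from its control, by -0.35, with -0.09 on slide 87 and -0.60 on slide 88. The signal of the gene was 1.02 times its limit. The 4 tested carriers of neutral amino acids, SLC6A15, SLC6A17, SLC6A18 and SLC6A20, had ratios from -0.09 to 0.03.

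The transmitter carriers of SLC6 had 3 tested genes, with ratios of -0.31 to -0.01. SLC6A4, the serotonin transporter, gave a signal 8.02 times its limit. Its control pools read 11.49, 10.64, 10.57 and 10.02 and its lipid pools 11.26, 10.15, 10.57 and 9.50. Lipid pools were lower in pairs 1, 2 and 4, by -0.23, -0.49 and -0.53, and level in pair 3. The 2 arrays of a pair differed, with 0.29 and -0.29 in pair 3 and -0.08 and -0.97 in pair 4. Arrays with lipid in Cy5 had a mean ratio of -0.57 and those with lipid in Cy3 -0.06. The ratio was -0.31 ± 0.12 (95% interval -0.58 to -0.04). The highest and lowest pool pair lay 1.61 apart in the mean of both pools, more than the difference between groups, so lipid and control ranges overlapped. A dimmer probe, which was not above the limit on enough arrays, had 0.10 ± 0.06. SLC6A2, the noradrenaline transporter, read 7.75, 7.51, 7.43 and 7.45 in control pools and 7.62, 7.49, 7.34 and 7.36 in lipid pools, or -0.08 ± 0.02. SLC6A13, a GABA carrier, had -0.01 ± 0.05.

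The SLC36 family includes carriers that move small amino acids with protons, and SLC36A1 (PAT1) and SLC36A4 are found at the lysosome as well. Of the 4 SLC36 genes, 1 had a ratio above 0. SLC36A4 read 9.55, 10.02, 9.56 and 9.04 in control pools and 9.53, 10.00, 9.37 and 9.01 in lipid pools. Its ratio of -0.07 ± 0.04 was below 0 in each pair, but at most 0.03 away from 0 outside pair 3. SLC36A2, a glycine and proline carrier, read 7.29, 7.09, 7.36 and 7.39 in control pools and 6.99, 6.99, 7.26 and 7.28 in lipid pools. The ratio was -0.15 ± 0.05 (95% interval -0.33 to 0.02), and like SLC1A3 it was below 0 on all 8 arrays, at a signal only 1.03 times its limit. SLC36A3 had -0.10 ± 0.11.

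SLC36A1 showed how far a dye can move a single array. It read 8.06, 7.55, 7.75 and 7.43 in control pools and 7.79, 7.50, 8.09 and 7.48 in lipid pools, and its ratio was 0.02 ± 0.13. On single arrays, however, the ratio averaged 0.97 where lipid was in Cy5 and -0.93 where it was in Cy3. The part of the ratio that followed the dye was 0.95, the largest among the 40 genes, and exchange of the dyes removed it from the mean. This part was larger than the lipid ratio in 25 of the 40 genes (62.5%) and in 59.96% of all genes.

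**Figure D4:**
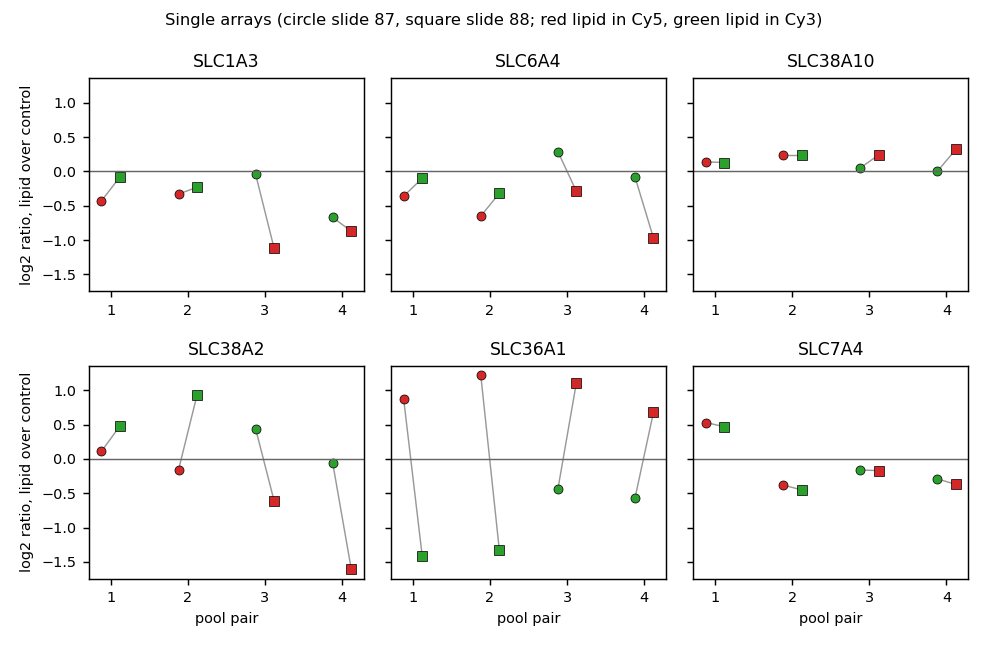
Log2 ratio of lipid over control (vertical axis) on each single array for 6 genes, by pool pair (horizontal axis). Circles are slide 87 and squares slide 88, red with lipid in Cy5 and green with lipid in Cy3. SLC1A3 is below 0 on all 8 arrays, SLC36A1 changes sign with the dye, SLC38A2 differs between the 2 arrays of a pair, and SLC7A4 differs between pairs.

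The SLC38 family comprises sodium-coupled carriers of glutamine, alanine and other small neutral amino acids. Of its 6 tested genes, 3 had ratios above 0 and 3 below. SLC38A2 (SNAT2), which in mammalian cells is made in larger amounts when amino acids are scarce or the medium is hypertonic, read 12.42, 12.18, 12.90 and 12.70 in control pools and 12.72, 12.56, 12.82 and 11.87 in lipid pools. Pairs 1 and 2 were higher with lipid, by 0.30 and 0.38, and pair 4 lower, by -0.83. The 2 arrays of a pair disagreed, however, with -0.16 and 0.93 in pair 2 and -0.06 and -1.60 in pair 4. The ratio averaged -0.57 where lipid was in Cy5 and 0.45 where it was in Cy3. The mean was -0.06 ± 0.28 with a 95% interval of -0.61 to 0.49, among the widest of the tested genes. A dimmer probe, with a mean level of 7.35 and a signal 1.13 times its limit, did not show this spread. It had -0.01, 0.05, 0.08 and -0.01 in pairs 1 to 4, or 0.03 ± 0.02. The neighbours of SLC38A2 in the genome, SLC38A1 and SLC38A4, gave too little signal to be tested.

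SLC38A10, a little studied relative, read 7.57, 7.39, 7.22 and 7.37 in control pools and 7.70, 7.63, 7.37 and 7.53 in lipid pools. Each lipid pool was above its own control, by 0.14, 0.24, 0.15 and 0.16. The ratio was 0.17 ± 0.02, or 1.13 times the control level (95% interval of the log2 ratio 0.02 to 0.32). On slide 87 it was 0.11 and on slide 88 0.23. Its signal was 1.17 times the limit. SLC38A6 and SLC38A11, also little studied, spread over 0.62 to -0.61 and 0.47 to -0.71 among the pairs, with means of 0.10 ± 0.30 and -0.02 ± 0.25. SLC38A5 had -0.08 ± 0.08, and SLC38A7, a glutamine carrier of the lysosome, 0.05 ± 0.06.

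Levels differed between pool pairs by more than the size of the lipid ratio almost throughout. Both pools of a pair share their arrays, so these level differences include array differences and do not measure the spread of the ratio. The range of levels over the 4 pairs, taken as the mean of the control and lipid pool of each, was larger than the size of the mean ratio in 39 of the 40 genes (97.5%; 96.78% of all genes). Its median was 0.41, beside a median absolute ratio of 0.08. The SD of the ratio over pairs had a median of 0.194, against 0.218 over all genes. It differed with signal: the median SD was 0.26 for the 16 genes at 2 times the limit or more and 0.12 for the 24 dimmer ones, whose ratios stayed between -0.15 and 0.21. In 9 genes (22.5%; 18.95% of all genes) pairs 1 and 2 had a sign opposite to pairs 3 and 4, as in SLC7A6. Because dye and slide are crossed over the pairs, a dye effect unequal on slides 87 and 88 has opposite signs in pairs 1 and 2 and in pairs 3 and 4; its part was not tested. Across the 40 genes, the ratios of slides 87 and 88 had a correlation of 0.47 (0.58 over all genes), given as a description because both slides hold the same pools and genes are not replicates.

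Genes that respond to amino acid supply gave no call either. Of 20 genes listed for the amino acid response, the programme driven by the kinase EIF2AK4 and the transcription factor ATF4, 18 were on the array and tested, 8 with ratios above 0 and 10 below, with a median of -0.02 and none at an unadjusted p under 0.05. ASNS, the asparagine synthetase induced by this programme, had 0.11 ± 0.16, ATF4 -0.01 ± 0.16 and EIF2AK4 -0.34 ± 0.25. PSAT1, of serine synthesis, had 0.36 ± 0.26, with 1.06 in pair 1. Of 29 genes listed for amino acid sensing by mTORC1, 20 were tested, with 8 above 0 and 12 below and a median of -0.01. At an unadjusted p under 0.05, 2 of the 20 were higher with lipid, where 2.82% of all genes were. The lower side held 1, where the share of all genes was 2.59%. Of those higher, the S6 kinase gene RPS6KB1 had 0.42 ± 0.16 (95% interval 0.08 to 0.77) and FLCN, a regulator of the Rag GTPases, 0.17 ± 0.04 (0.01 to 0.33). On the lower side SEC13, a subunit shared by the GATOR2 complex and vesicle coats, had -0.28 ± 0.11 (-0.53 to -0.02). Of 16 genes for amino acid and peptide carriers of other families and their partner proteins, 11 were tested, with 5 above 0, 6 below and a median of -0.02. The 0 genes with an adjusted p under 0.05 in these 3 lists stand beside 0 of 12957 in all.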

How the data were processed

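The scanner files deposited by the authors give, per the file headers, a mean foreground and a median background intensity for each spot in Cy3 and Cy5. Of tools, limma alone is listed in the submitters' processing notes. The authors also deposited a table of values taken here to be log2 ratios, which tracked lipid over control (correlation 0.95 to 0.98 with the scanner values) and served as an alternative. How that table was normalized, and its log base, could not be read from the labels or headers.

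Intensities were corrected with normexp (offset 50) and normalized by loess within arrays, with control spots at weight 0, in limma 3.58.1 (R 4.3.3). Pool levels additionally had Aquantile scaling. The detection limit of an array and channel was set 2 SD above the mean of its 153 negative control probes. Probes past it in either channel on at least 4 of 8 arrays were kept, 33420 of 43794 probes. A limit from all 757 negative control and dark corner spots passed only 20.5% of probes on 1 array, where a few dark corner spots were bright, and is an alternative. The median probe gave an intensity of 230 to 324 in Cy3 (negative control probes 179 to 253) and, in Cy5, of 180 to 229 (negative control probes 151 to 204); signal and array number limit the precision.

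The labels do not say which arrays share pools. Arrays were paired by number: deviations from the mean of their dye orientation correlated by 0.59 to 0.74 within a number and -0.32 to -0.01 otherwise. With the dye part left in, the lipid over control ratios correlated by only 0.01 to 0.32 within a number and -0.52 to -0.22 otherwise. The 2 arrays of a number were averaged, and 4 ratios were tested against 0 (lmFit and eBayes, two-sided, Benjamini-Hochberg over kept probes, threshold 0.05, tested on simulated data). No label ties the pools to separate fertilizations, so p-values and intervals measure the spread between these pools.

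The members, lists and naming rule were chosen with earlier results of these data known. Named with every pool's value were the 12 members of smallest p and 18 of 19 fixed members on the array, 25 in all; SLC7A4 was added after its values were seen. Symbols come from the platform annotation, and all 53 match RefSeq. Alternatives changed the block, background, normalization, filter, prior, slide, probe choice and pool pairs.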

Additional observations from a re-analysis of the deposited data

Results flagged for a closer look

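Of 91 sets of 4 values searched, 3 held a value far from the other 3, and chance flags about 1 in 20 such sets. The log2 ratio of SLC36A2 was lowest in pool pair 1 at -0.30, with -0.11 to -0.10 elsewhere. The log2 ratio of SLC36A4 was lowest in pool pair 3 at -0.19, with -0.03 to -0.02 elsewhere. The level of SLC6A6 was 6.92 in lipid pool 3 and 7.19 to 7.24 in the other lipid pools. Its ratio in pair 3 was -0.09 on slide 87 and -0.60 on slide 88.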

How the results depend on the processing

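The count of transporter genes with an adjusted p under 0.05 was 0 in all 19 settings. The count at an unadjusted p under 0.05 was 3 as reported, where 5.4% of all genes had such a p. It was 5 with no replicate block (the 8 arrays as independent samples), where 9.67% of all genes did. In that setting 2 of all genes and 0 transporter genes had an adjusted p under 0.05. The unadjusted count was also 5 on slide 88 alone, where 10.2% of all genes had such a p. With a random replicate block and a dye term per slide it was 5 as well. The fit that combined the random replicate block with the dye terms added SLC36A2 and SLC7A6OS, with a lowest adjusted p of 0.3374 among the members, while 10.2% of all genes had an unadjusted p under 0.05 in place of 5.4%. Without single pool pairs the count was 1 to 3, with 1 when pair 2 was left out. SLC7A4 and SLC7A6OS had such a p without pair 1, where 8.95% of all genes did, and SLC1A1 without pair 4, where 3.6% did. The share of all genes was 4.68% without pair 2 and 4.41% without pair 3. SLC1A3 was below 0 in all 19 settings, at -0.57 to -0.03, and at an unadjusted p under 0.05 in 18; the mean over its probes gave -0.03, and its probes disagree in sign. SLC6A4 (-0.42 to -0.20) and SLC38A10 (0.11 to 0.23) had such a p in 14 of 19 each. On slide 87 alone SLC36A4 turned to 0.06 and SLC6A9 to -0.07, and the cause was not tested. Ratios near 0 also took either sign over the settings in SLC36A1 (-0.23 to 0.27), SLC38A2 (-0.21 to 0.20), SLC7A6 (-0.21 to 0.07) and SLC6A8 (-0.09 to 0.06). The genes tested numbered 33 with signal required on all 8 arrays, 37 with the limit from all control spots and 53 without a filter; the limit from all control spots and the negative control probes as background were chosen after seeing the data. Genes at less than 2 times the limit (24 of 40) lie near background, where ratios can be compressed.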
